A study of Mus musculus with 2 samples.

Results

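The BCL2 family decides at the mitochondrial outer membrane whether a stressed cell lives or dies. Anti-death proteins such as BCL2 and MCL1 hold the effectors BAX and BAK in check. BH3-only proteins such as BIM and BID tip the balance by binding the anti-death proteins or the effectors. Active BAX and BAK make the outer membrane permeable, and the cytochrome c that leaves starts the caspases. In the heart, cardiomyocytes divide little, so their loss by this route is a known concern in heart disease. The cells used here had been passaged in culture.

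The 10 genes described here are *Bcl2*, *Bcl2l1*, *Bcl2l2* and *Mcl1* of the anti-death group, the effectors *Bax* and *Bak1*, and the BH3-only genes *Bcl2l11*, *Bid*, *Bad* and *Bmf*. They were taken by name from the 37074 gene names on a mouse expression array, and 23 probes carry these names. MCMs, bought mouse cardiomyocytes that had been passaged, were transfected with negative control siRNA (siRNA-NC) or with siRNA against *Ppp2r5d*, a regulatory subunit of the phosphatase PP2A. Both cultures were moved to glucose-free medium at 48 h and collected at 64 h after transfection, so glucose withdrawal is shared by the control. The comparison asks which genes differ when *Ppp2r5d* is low. There was 1 culture and 1 array per condition, so no difference below has a replicate check, no p-value was computed, and the siRNA cannot be told apart from any other difference between the cultures.

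Each probe has 1 spot per array. Its value is the background-corrected intensity of the scanner software in arbitrary units. Log2 fold changes are siRNA-*Ppp2r5d* over siRNA-NC after each array was scaled to its 75th percentile, which was 593 units on the control array and 519 on the knockdown array. A gene was measured where a probe was well above background on both arrays, and its value is the mean over such probes. By this rule 20350 genes were measured, with a median log2 fold change of 0.026 and quartiles of -0.15 and 0.18. Probes printed 10 times give the error of a spot. The SD of their log2 fold change had a median of 0.035 over 267 probes with an intensity of 1000 or more, 0.059 over 9 probes between 100 and 1000, and 0.21 over 7 probes under 100. These SDs come from repeat spots on the same 2 arrays. They do not include the difference between cultures, or differences in labelling and hybridization between the arrays. The scanner software's own error was 10% of the intensity on each array for bright member probes such as those of *Mcl1*.

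*Ppp2r5d* had an intensity of 4701 with siRNA-NC and 676 with siRNA-*Ppp2r5d*, a log2 fold change of -2.61. Of 14 markers of cardiomyocytes, 8 were measured on both arrays and *Actn2*, *Pln* and *Myl2* were well above background on neither. *Myh6*, *Ryr2* and *Mybpc3* were well above background with siRNA-*Ppp2r5d* alone, but all lay near the floor. Their intensities with siRNA-NC and siRNA-*Ppp2r5d* were 12.4 and 14.3, 8.09 and 19.3, and 3.23 and 14.2. The lowest signal well above background was 14.9 and 13.5 on these arrays. Of the 8, 6 were above 0 on the log2 scale and 3 past 1.5-fold higher, beside 54.1% and 3.36% of all measured genes. The 3 were *Myl3* at 0.90, *Ttn* at 0.89 and *Nppa* at 0.62, and the median of the 8 was 0.25. *Myl3* and *Nppa* rest on 1 dim probe each, with 40.4 and 66.2 and with 16.6 and 22.4, where the spot SD is largest. The 5 measured *Ttn* probes ran from 0.44 to 1.55. Of 9 fibroblast markers 7 were measured, 3 above 0 and 4 below, with *Lum* at 1.08, *Pdgfra* at 0.62 and a median of -0.050. Their collagens were bright, with *Col1a2* at 147519 and 134481. The smooth muscle markers *Cnn1* and *Tagln* had 2.41 and 0.85, and *Acta2* and *Myh11* had -0.020 and -0.38. Of the leukocyte markers *Cd68* had -0.77, *Lyz2* -0.68, *Csf1r* -0.065 and *Ptprc* 0.13. The endothelial marker *Pecam1* had -0.23, and *Cdh5*, *Kdr* and *Vwf* were well above background on neither array. *Tek* was well above background with siRNA-*Ppp2r5d* alone, also near the floor, at 8.39 with siRNA-NC and 18.7 with siRNA-*Ppp2r5d*. Summed over all probes of a list, the unscaled intensity with siRNA-NC and siRNA-*Ppp2r5d* was 10120.3 and 9642 for cardiomyocytes, 404033 and 363255 for fibroblasts, 174785 and 156186 for smooth muscle, 4362 and 2853 for leukocytes and 108 and 88.7 for endothelium. After scaling, the log2 difference of these sums was 0.12 for cardiomyocytes, 0.039 for fibroblasts, 0.030 for smooth muscle, -0.42 for leukocytes and -0.092 for endothelium. The part of these differences in the results below was not tested, and in a culture fewer cells of a type and less RNA per cell cannot be told apart.

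All 10 genes were measured on both arrays, by 21 of their 23 probes. *Bcl2* was 2.08-fold lower with siRNA-*Ppp2r5d* and was the 1 member past 2-fold. Both effectors were 1.33-fold higher. *Mcl1* was 1.12-fold lower, and the other 6 genes lay between -0.047 for *Bid* and 0.30 for *Bmf* on the log2 scale. Of all measured genes, 1.07% were at least 2-fold lower and 0.885% at least 2-fold higher, beside 1 and 0 of the 10 members. At 1.5-fold the shares of all genes were 4.65% lower and 3.36% higher, and the members again gave 1 and 0. A count of 1 in 10 genes is too small to set apart from these shares.

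*Bcl2* was read by 3 probes, all of 60 bases on the minus strand of chromosome 1 in the mouse build mm9. Following the direction of transcription, the probe at chr1:108608970-108609029 comes first. The second lies 1.66 kb further on at chr1:108607310-108607369 and has a stop codon in each forward reading frame, so it cannot lie wholly in coding sequence. The third lies 174 kb from the first, at chr1:108434793-108434852. The first probe reads the coding sequence around the BH1 region, part of the groove in which BCL2 holds BH3 peptides. Its sequence is shown with 3 other coding probes, so that a reader can see which stretch of each message the values come from. Of these, the *Bcl2l1* probe reads the coding sequence of BCL-XL at chr2:152655185-152655244. The *Bax* probe and the *Bcl2l11* probe have mm9 intervals of 156 and 11096 bases for 60 bases of probe, chr7:52721469-52721624 and chr2:127972893-127983988, and so span splice junctions. Capitals in the *Bcl2l11* probe mark the codons of the glycine and aspartate pair at the core of the BH3 motif. The files give no exon or UTR for any probe, and these 4 are called coding from general knowledge of the proteins and from their open reading frames.
Bcl2 coding probe: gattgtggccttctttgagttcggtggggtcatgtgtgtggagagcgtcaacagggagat
Bcl2l1 coding probe: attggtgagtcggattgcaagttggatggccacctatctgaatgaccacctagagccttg
Bax junction probe: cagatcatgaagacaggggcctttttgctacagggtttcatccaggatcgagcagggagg
Bcl2l11 junction probe: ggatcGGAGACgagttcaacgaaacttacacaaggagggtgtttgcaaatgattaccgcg

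The *Bcl2* coding probe printed first above had an intensity of 359.7 with siRNA-NC and 158 with siRNA-*Ppp2r5d*, a log2 fold change of -0.999. The probe 1.66 kb downstream had 147 and 85.7, a log2 fold change of -0.58. The probe 174 kb downstream had 490.1 and 143, a log2 fold change of -1.58. After scaling, all 3 probes were lower with siRNA-*Ppp2r5d*, by 1.5-fold to 2.99-fold, each by more than the spot error at its intensity. The size differed between probes, with an SD of 0.50, where the 2784 genes with at least 3 measured probes had a median SD of 0.16. Of those 2784 genes, 531 had all measured probes lower, which is 19.1%. With *Bcl2* itself counted, 20 had every probe at or below the -0.58 of the weakest *Bcl2* probe, which is 0.718%. That cut-off was taken from the *Bcl2* values themselves, so *Bcl2* meets it by construction. The mean for *Bcl2* was -1.05, and 181 of the 20350 measured genes, 0.889%, were lower still. Whether the probes read different transcripts of the gene was not tested.

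**Figure D1:**
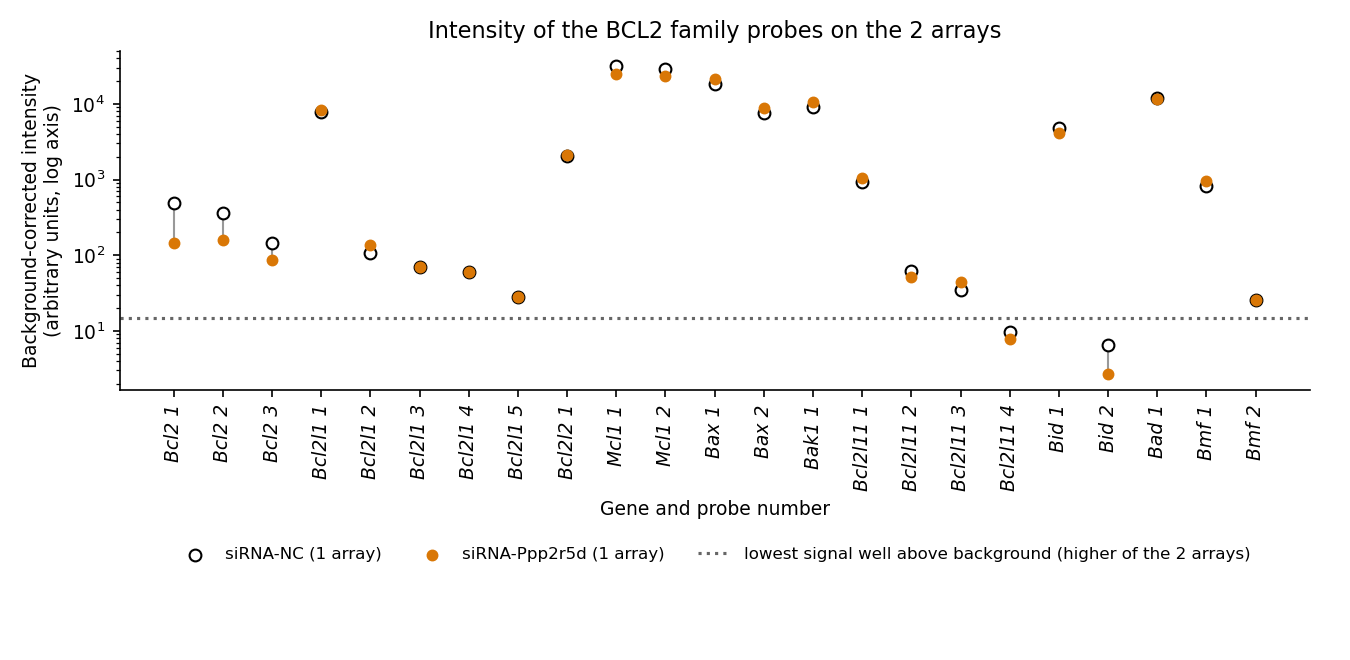
Background-corrected intensity of each of the 23 probes of the 10 genes on the siRNA-NC array (open circles) and the siRNA-Ppp2r5d array (filled circles), before scaling, on a log axis in arbitrary units. Probes are numbered within a gene from the brightest on the siRNA-NC array, the grey lines join the values of a probe, and the dotted line is the lowest signal well above background, 14.9, on the array where it is higher. The 3 Bcl2 probes have the longest joins among probes above that line, from 490.1 to 143 for the brightest.

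The other anti-death genes did not share this difference. *Bcl2l1* encodes BCL-XL. Its brightest probe, at chr2:152606404-152606463, had 7785 with siRNA-NC and 8287 with siRNA-*Ppp2r5d*, a log2 fold change of 0.28. The other 4 probes were dim, from 28.1 to 106.7 with siRNA-NC and from 28.0 to 138 with siRNA-*Ppp2r5d*. Among them the coding probe had 69.7 and 69.4, which is level before scaling and 0.19 after it. All 5 probes had log2 fold changes above 0, from 0.19 to 0.57, and the mean was 0.29. *Bcl2l2* encodes BCL-W and had 2036 and 2086 from its single probe, a log2 fold change of 0.23.

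*Mcl1* encodes a short-lived anti-death protein that the kinase GSK3 marks for degradation, and it was read by 2 bright probes. The first had 31495 with siRNA-NC and 24604 with siRNA-*Ppp2r5d*, and the second 29242 and 23045. Their log2 fold changes, -0.16 and -0.15, differed from each other by less than the spot error. The mean of -0.16 had 24.7% of measured genes below it. The array reads RNA and gives no measure of MCL1 protein or of its phosphorylation.

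The effectors, whose active forms open the outer membrane, had like values. *Bax* had 18551 and 21520.3 from its brighter probe and 7568 and 8898 from its junction probe, with log2 fold changes of 0.41 and 0.43. *Bak1* had 9020.2 with siRNA-NC and 10507 with siRNA-*Ppp2r5d*, a log2 fold change of 0.41. Their gene values, 0.416 and 0.412, cannot be put in order within the spot error. Of the measured genes 93.1% were below *Bax* and 93.0% below *Bak1*, so both sit in the upper part of the spread without reaching 1.5-fold.

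Of the BH3-only genes, *Bcl2l11* encodes BIM, which binds every anti-death member. It had 937 and 1044 from its brightest probe, a log2 fold change of 0.35. The junction probe over the BH3 coding stretch had 34.3 and 44.5, or 0.57. Another probe had 61.5 and 51.5, or -0.065, and the fourth was not well above background, with 9.80 and 7.75. The 3 measured probes thus did not share a sign, and 2 of them were under an intensity of 100, where the spot error is largest. Their mean was 0.28 with an SD of 0.32.

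*Bmf*, whose protein is released from the cytoskeleton under stress, had 830.3 and 949.5 from its brighter probe, a log2 fold change of 0.39. Its dim probe had 25.4 and 25.9, or 0.22. *Bad*, whose protein is kept inactive by phosphorylation, had 11833 with siRNA-NC and 11473 with siRNA-*Ppp2r5d*. It was thus dimmer before scaling and 0.15 after it. *Bid*, whose protein is cut by caspase 8 to become active, had 4867 and 4124, a log2 fold change of -0.047. A further *Bid* probe had 6.50 and 2.67, below the level that counts as well above background on either array.

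**Figure D2:**
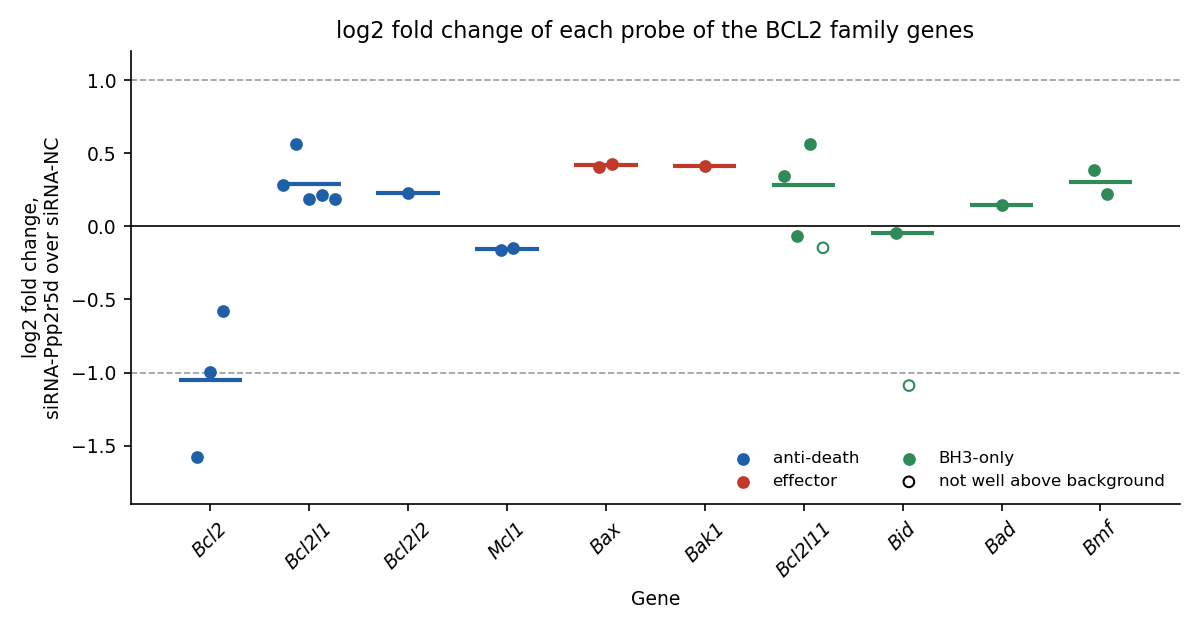
Log2 fold change of each probe (circles) and the mean over measured probes (bars), siRNA-Ppp2r5d over siRNA-NC, for the 10 genes in colours by role, with 1 array per condition. Open circles are probes not well above background on either array and dashed lines mark 2-fold. The 3 Bcl2 probes lie from -1.58 to -0.58, below the measured probes of all other members.

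Set in order, the genes ran from *Bcl2* at -1.05 over *Mcl1* at -0.16, *Bid* at -0.047, *Bad* at 0.15, *Bcl2l2* at 0.23, *Bcl2l11* at 0.28, *Bcl2l1* at 0.29 and *Bmf* at 0.30 to *Bak1* and *Bax* at 0.41 and 0.42. The step from *Bcl2* to *Mcl1* was 0.90, and the next largest was 0.19, from *Bid* to *Bad*. The steps from *Bcl2l11* to *Bcl2l1* and on to *Bmf* were 0.0052 and 0.016, less than the spot error. By role, the medians were 0.035 for the 4 anti-death genes, 0.41 for the 2 effectors and 0.22 for the 4 BH3-only genes. The median over all 10 was 0.25, beside 0.026 over all measured genes. Above 0 were 7 of the 10 genes, and 54.1% of all measured genes.

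**Figure D3:**
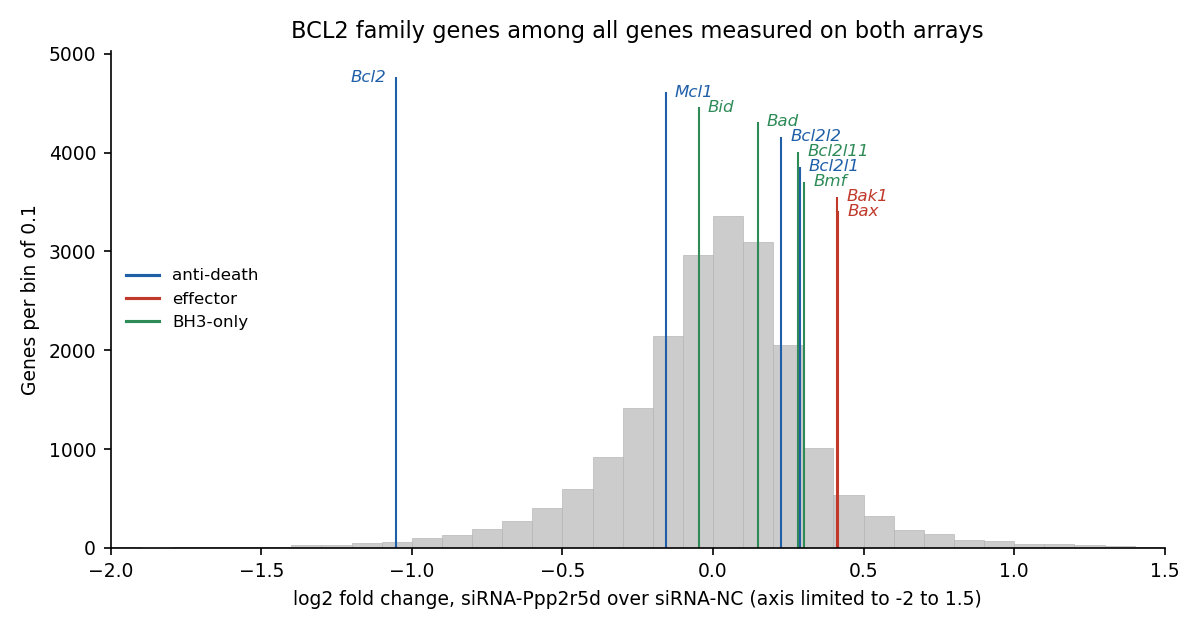
Histogram of the log2 fold change of the 20350 genes measured on both arrays, in bins of 0.1, with a vertical line at the value of each of the 10 genes, coloured by role. The axis is limited to -2 to 1.5, and the height of a line has no meaning. Bcl2 stands in the lower tail at -1.05, and the other 9 genes lie from -0.16 to 0.42.

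The differences between members do not depend on how the arrays are scaled by a single factor, since the factor cancels. *Bcl2* was lower than the median of the other 9 genes by a log2 difference of -1.34. Against *Bax* the difference was -1.47, and against *Bak1* -1.47. *Mcl1* against *Bax* gave -0.57. The sizes of the values do depend on the scaling, and so does the sign of *Bad*. Which member was highest also depended on the processing. Under quantile normalization and in the authors' log2 values it was *Bmf*, at 0.33 in both. There *Bak1* had 0.32 and *Bax* 0.31. The 9 genes other than *Bad* kept their signs in all 10 settings, the reported one and the alternatives. Scaling to the spike-in probes, which takes the RNA added by the laboratory as equal, lowered the median of all measured genes by 0.21. It left *Bcl2* at -1.27, *Mcl1* at -0.37 and *Bax* and *Bak1* at 0.20, turned *Bad* from 0.15 to -0.065, and left *Bcl2l2* at 0.014. Relative to the median of all genes, 7 members were higher and 3 lower under each of the 9 alternatives. *Bcl2* was past 2-fold lower in all of them other than normexp background correction, which adds an offset of 50 and gave -0.78.

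**Figure D4:**
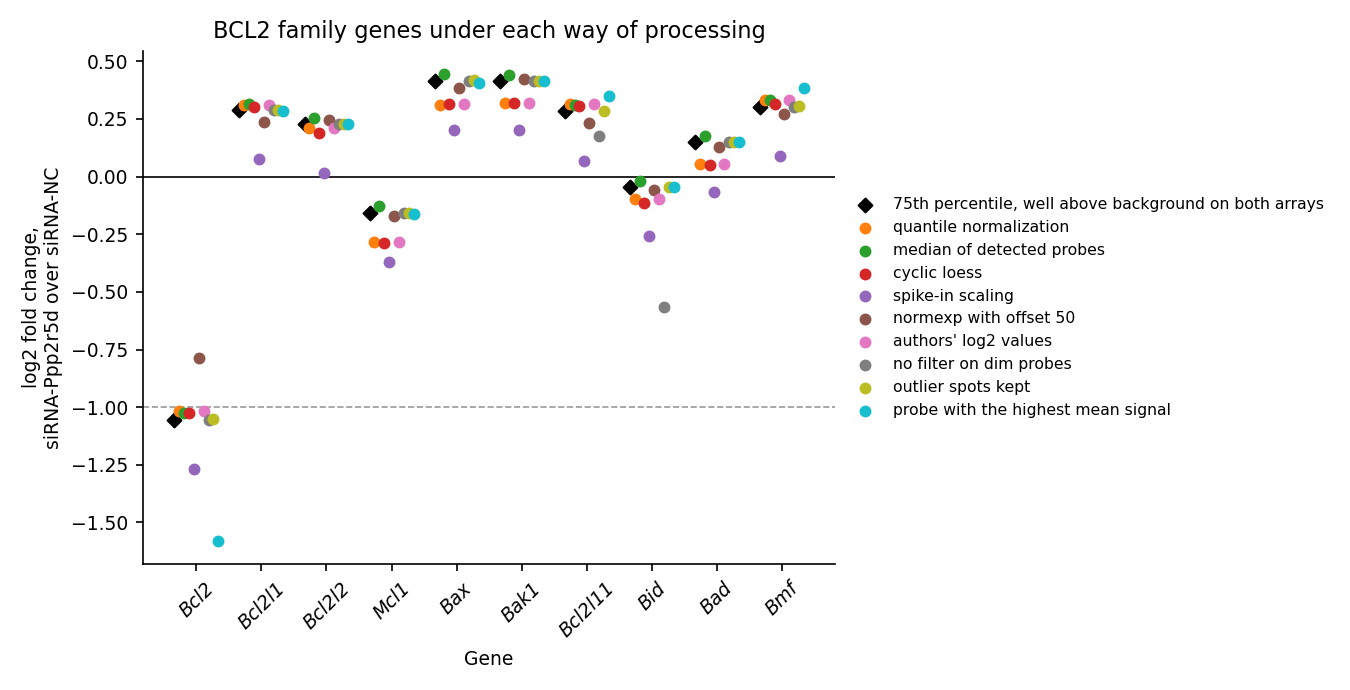
Log2 fold change of the 10 genes, siRNA-Ppp2r5d over siRNA-NC, under the reported processing (black diamonds) and 9 alternatives (coloured circles). The dashed line marks 2-fold lower. Bcl2 ranges from -1.58 to -0.78 and is the lowest member under every setting, while Bad is on either side of 0.

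Further genes of the family were taken from a list of 16, of which 14 are on the array and 9 were measured. None of the 9 was past 1.5-fold, 5 were above 0 and 4 below, and the median was 0.14. The BH3-only genes *Pmaip1* and *Bbc3*, which encode the p53 targets NOXA and PUMA, had log2 fold changes of 0.41, from 1698 and 1979.6, and 0.14, from 3374 and 3259.5. *Bok*, a relative of the effectors, had 2421 and 1505, a log2 fold change of -0.49. The mitophagy receptors *Bnip3* and *Bnip3l* had 0.16 and 0.24, and *Becn1*, an autophagy gene with a BH3 motif, had 0.18. *Bcl2l12*, *Bcl2l13* and *Bcl2l15* had -0.23, -0.21 and -0.058. The value of *Bcl2l13* is a mean over 3 measured probes that ran from -0.65 to 0.017. *Bcl2a1d*, *Bcl2l10*, *Hrk*, *Bik* and *Bcl2l14* were not well above background on either array.

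Downstream of the outer membrane, 15 of 16 genes were measured, with 6 above 0, 9 below, none past 1.5-fold and a median of -0.027. *Endog*, a mitochondrial nuclease, had a log2 fold change of -0.34 and *Birc2*, an inhibitor of apoptosis, had -0.25. *Apaf1*, the scaffold of the apoptosome, had -0.045 and *Casp9*, the caspase it activates, had -0.027. *Cycs*, which encodes cytochrome c, had 0.14.

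Of 22 genes that act on BCL2 proteins or on their transcription, all were measured, 15 above 0 and 7 below, none past 1.5-fold, with a median of 0.031. The largest differences were in *Ddit3*, which encodes the stress factor CHOP, with -0.54, and in *E2f1*, a driver of S phase, with -0.52. The 2 *Ddit3* probes had -0.74 and -0.35. *Dynll2*, the dynein light chain that holds BMF, had 0.32, and *Foxo3*, an activator of the BIM gene, had 0.31. *Gsk3a* and *Gsk3b*, the kinases that mark MCL1, had 0.055 and 0.030, and *Fbxw7*, a ubiquitin ligase subunit for MCL1, had 0.060. *Trp53* had 0.15.

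**Figure D5:**
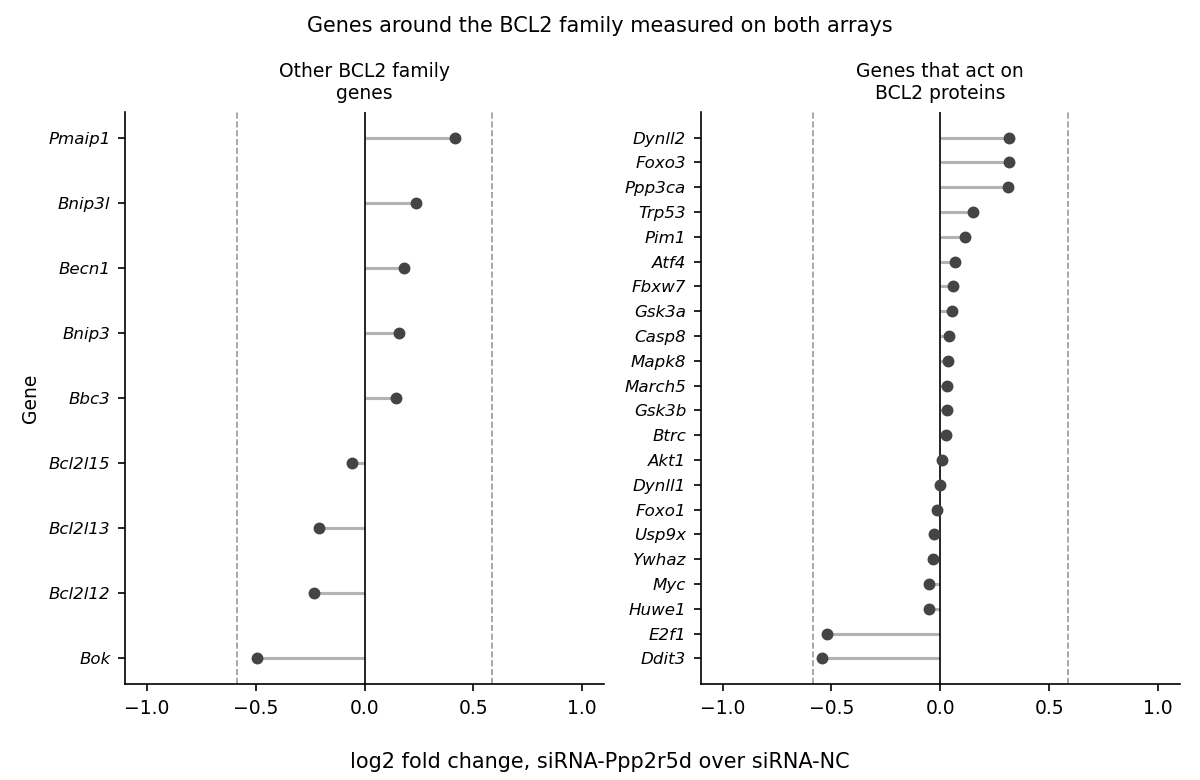
Log2 fold change, siRNA-Ppp2r5d over siRNA-NC, of the genes measured on both arrays in 2 lists, namely 9 other BCL2 family genes and 22 genes that act on BCL2 proteins or their transcription. Dashed lines mark 1.5-fold. No gene of the 2 lists passes them, with Ddit3 lowest at -0.54 and Pmaip1 highest at 0.41.

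Since the study turns to the transcription factor STAT3, the promoter windows of the members were searched for the letters of its site, TTCNNNGAA, which read the same on either strand. RefSeq windows of build GRCm38.p6, 300 bases around each start, matched all 10 genes and gave 16 windows. None of the 16 held the motif, against 8.30% of 32851 windows over all genes. This says only that these letters are not in these windows, and 16 windows are too few to set apart from that share. The members' windows had a median GC content of 61.0%, from 49.3% for a *Bcl2l1* window to 76.0% for *Bcl2*, beside 52.7% over all windows.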

How the data were processed

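RNA of 2 MCM cultures was measured on 1-colour Agilent arrays, 1 per condition. The deposited scanner output of Feature Extraction 10.7.1.1 gives a background-corrected intensity per spot. A second table by the authors holds log2 values, which matched a quantile normalization of those intensities with a median absolute difference of 5.63e-05 or less, although the methods name GeneSpring and no normalization. The precision is limited by the number of arrays.

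Spots flagged as non-uniform or population outliers (126 for siRNA-NC and 95 for siRNA-*Ppp2r5d*, none on a member's probe) were left out, and no spot was saturated. Log2 intensities were averaged per probe and the 75th percentile was subtracted. Gene values are means over probes well above background on both arrays. The averaging over probes was also run on a copy of the control array in which picked genes had been changed by a set fold. That checks the code, and neither the scaling nor the accuracy of a value. Alternatives were quantile, detected-median, cyclic loess and spike-in scaling, normexp correction, the authors' log2 values, no filter on dim probes, outlier spots kept, and the brightest probe per gene. R 4.3.3, limma 3.58.1, Python 3.11.15 and pandas 2.3.3 were used.

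The members, lists, alternatives and named genes were chosen with earlier results of these data known. Named were all members, further family genes above background, and, of the pathway lists, genes past 1.5-fold or else the 4 largest, some of which are not reported here. Genes named beyond these, such as *Apaf1*, *Cycs*, *Gsk3a*, *Gsk3b*, *Fbxw7* and *Trp53*, were chosen after their values were seen. No paired analysis was possible because each condition had 1 array.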

Additional observations from a re-analysis of the deposited data

How the results depend on the processing

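Shifts of a median beyond 0.036, the typical spot SD of a log2 fold change, are given here. No paired analysis was possible because each condition had 1 array, and no replicate could be left out. The count of members past 2-fold was 1 and became 0 after normexp correction. The median over the 10 members, 0.25, was 0.042 with spike-in scaling and 0.20 without a filter on dim probes. For other family genes, 0.14 became -0.070 with spike-in scaling, 0.070 under quantile normalization and in the authors' log2 values, 0.065 under cyclic loess, 0.098 after normexp correction and 0.0029 without a filter. For the mitochondrial death pathway, -0.027 became -0.24 with spike-in scaling, 0.044 without a filter and 0.094 when each gene was read by its brightest probe. For genes that act on BCL2 proteins, 0.031 became -0.18 with spike-in scaling. The cause was not tested, except that spike-in scaling shifts each gene by the same amount and normexp compresses dim genes by its offset. The share of lower genes among all past 2-fold was 54.8%, against 82.7% with spike-in scaling and 44.0% after normexp correction. After normexp, 56 genes were 2-fold higher and 44 lower, against 180 and 218, and without a filter 957 and 1119. Spike-in scaling gave 99 and 473. *Bid* was -0.57 without a filter, through its dim probe, and *Bcl2* was -1.58 by its brightest probe. *Mcl1*, reported at -0.16, was -0.29 under quantile normalization and cyclic loess and -0.28 in the authors' log2 values. Signal over background limits the dim probes of *Bcl2l1*, *Bcl2l11* and *Bmf*.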

Other observations

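Among the 2784 genes with at least 3 measured probes, 4 had a mean at least 2-fold lower with siRNA-*Ppp2r5d*, and *Bcl2* was one of them. The others were *Tk1* at -1.84, *Top2a* at -1.09 and *AU040320* at -1.03 on the log2 scale, and were named after their values were seen. In these 3 genes the SD over probes was from 0.11 to 0.17, and in *Bcl2* it was 0.50. With 1 array per condition none of these values has a replicate check.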
